A study of Mus musculus with 17 samples.

Results

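Actin genes, the actin-regulating transcription factor gene Srf, 3 genes for actin-binding proteins, and Tpt1 with the small nucleolar RNA of its intron were followed in the hippocampus of mice that lack functional CBP in excitatory neurons. The 8 genes were Srf, Actb, Actg1, Cfl1, Pfn1, Pfn2, Tpt1 and Snora31, out of 55471 genes in the table of counts, and each was found there by the Ensembl identifier that carries its symbol. In GRCm38 they lie at chr17:46548329-46556175 (Srf), chr5:142903115-142906754 (Actb), chr11:120345690-120348542 (Actg1), chr19:5490455-5495201 (Cfl1), chr11:70651850-70654644 (Pfn1), chr3:57841895-57848079 (Pfn2) and chr14:75845093-75848525 (Tpt1). The genes were chosen with measured values in view. Actg1, Tpt1 and Snora31 were selected on their response in the Control PTZ45 libraries, so in the 4 comparisons made with those libraries, and in the genotype fit over all treatments that includes them, the values of the 8 genes are a description. The calls counted there are no test of these genes, and nothing is read from their number beside the share over all genes.

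The 17 libraries held total hippocampal RNA of individual males, 3 to 6 months of age, on the C57BL/6 background by the labels and C57BL/6J by the methods. CBP-ifKO mice carry floxed Crebbp alleles and a tamoxifen-inducible Cre (creERT2) driven by Camk2a, so that CBP is truncated only in forebrain excitatory neurons and other hippocampal cells keep it. Control mice were tamoxifen-treated littermates that, by the methods, lack creERT2, although the labels name Camk2a_creERT2 for them too. The drug was pentylenetetrazol (PTZ), a GABA-A receptor blocker that causes seizures and is given repeatedly to kindle mice. Sal mice had saline only, while PTZ0 mice had the repeated PTZ injections and were given saline at the end. For PTZ45 mice the repeated injections were followed by a last injection of PTZ at 45 mg/kg, shortly before the tissue was taken. These names stand for the injections in both genotypes and not for seizures, which were not analysed here and by which the mice of the 2 genotypes may differ. Each genotype and treatment had 3 libraries, except Control PTZ45 with 2. The design asks whether the transcriptional response to PTZ after kindling depends on CBP.

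Actin exists as monomers and filaments, and neurons remodel these filaments in dendritic spines. Actb and Actg1 encode the cytoplasmic beta and gamma actins. SRF binds the CArG box, a short element with an AT-rich core between CC and GG. Together with MRTF cofactors, which are held back by actin monomers, it drives actin and cytoskeletal genes, and together with ternary complex factors of the Elk family it drives immediate early genes after neuronal activity. CBP is a lysine acetyltransferase that is recruited by CREB, which binds the cAMP response element (CRE), and by other activators. Cofilin 1 (Cfl1) severs filaments, and the profilins (Pfn1, and Pfn2 as the main brain form) load monomers onto growing filaments. Tpt1 encodes TCTP, an abundant growth-related protein whose mRNA belongs to the 5′ TOP class of translationally controlled messages. Snora31 is a box H/ACA small nucleolar RNA, a class that guides pseudouridylation of RNA.

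The sequences before the RefSeq starts of Srf, Actg1 and Tpt1 are shown because they hold the CArG boxes and TGACG motifs, the CRE core, found among these genes. They are RefSeq sequences of build GRCm38.p6, read 5′ to 3′ on the strand of the gene, and the capitals mark a CArG box (CC, 6 A or T, GG) or TGACG on either strand. The Srf stretch is chr17:46556176-46556412 on the minus strand and the Actg1 stretch is chr11:120348543-120348745 on the minus strand. The Tpt1 stretch is chr14:75845226-75845255 on the plus strand, and it lies inside the gene as annotated for the counts, whose start is upstream of the RefSeq start.
Srf: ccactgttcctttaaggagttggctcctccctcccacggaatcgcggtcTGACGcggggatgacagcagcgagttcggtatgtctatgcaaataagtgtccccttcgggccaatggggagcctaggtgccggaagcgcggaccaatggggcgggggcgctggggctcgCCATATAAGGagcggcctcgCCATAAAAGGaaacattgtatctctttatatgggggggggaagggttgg
Actg1: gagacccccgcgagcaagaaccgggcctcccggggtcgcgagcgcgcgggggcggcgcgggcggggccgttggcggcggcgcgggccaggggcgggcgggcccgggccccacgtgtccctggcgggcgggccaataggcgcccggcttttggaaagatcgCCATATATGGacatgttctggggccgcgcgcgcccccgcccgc
Tpt1: ccgccctgcgttcaCGTCAccgcTGACGac

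Within the 250 bases before the RefSeq start, Srf held 2 CArG boxes and Actg1 held 1, whereas Cfl1, Pfn1, Pfn2 and Tpt1 held none. A CArG box was present in 1.47% of 32851 promoters of the same length. Tpt1 held 2 TGACG motifs, 1 on each strand, and Srf held 1, and at least 1 was present in 17.8% of promoters. At the RefSeq start itself, a C followed by 4 C or T, as in a 5′ TOP message, was found in none of the 6 genes, Tpt1 included, and in 2.51% of all entries. No promoter entry was used for Actb or Snora31. A match of letters is a description and not evidence of binding.

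Snora31 lies at chr14:75847905-75848034 (GRCm38, plus strand), inside a 738-base intron of Tpt1, and shares no exon base with it. In total RNA, its counts cannot tell the snoRNA from unspliced Tpt1 RNA over the same bases. The 130-base sequence of Snora31 is shown because it is counted apart from its host, with capitals for the ANANNA motif between its hairpins and for the ACA that ends 3 bases before the 3′ end.
Snora31: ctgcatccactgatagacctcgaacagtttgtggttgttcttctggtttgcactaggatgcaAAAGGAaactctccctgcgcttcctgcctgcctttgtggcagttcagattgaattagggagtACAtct

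Copies of the actin and Tpt1 messages limit what the counts measure. The coding sequences of Actb and Actg1, each of 1125 bases without the stop codon, were identical at 997 positions (88.6%). Among all 50-base windows of the main mRNA, 55.9% of those of Actg1 occurred unchanged in an annotated transcript of another gene, against 42% for Tpt1, 14.2% for Actb and 9.15% for Cfl1. No such window was found for Srf, Pfn1, Pfn2 or Snora31. The whole coding sequence of Tpt1, 516 bases, was identical in the processed pseudogene Tpt1-ps3 on chromosome 6, and the first 857 coding bases of Actg1 were identical in the processed pseudogene Gm12715 on chromosome 4, a gene named after its values were seen. The first 60 coding bases are shown because reads from them cannot be assigned to a single gene.
Tpt1 and Tpt1-ps3: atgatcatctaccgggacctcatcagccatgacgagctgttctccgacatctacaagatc
Actg1 and Gm12715: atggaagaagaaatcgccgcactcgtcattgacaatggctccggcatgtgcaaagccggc

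**Figure D1:**
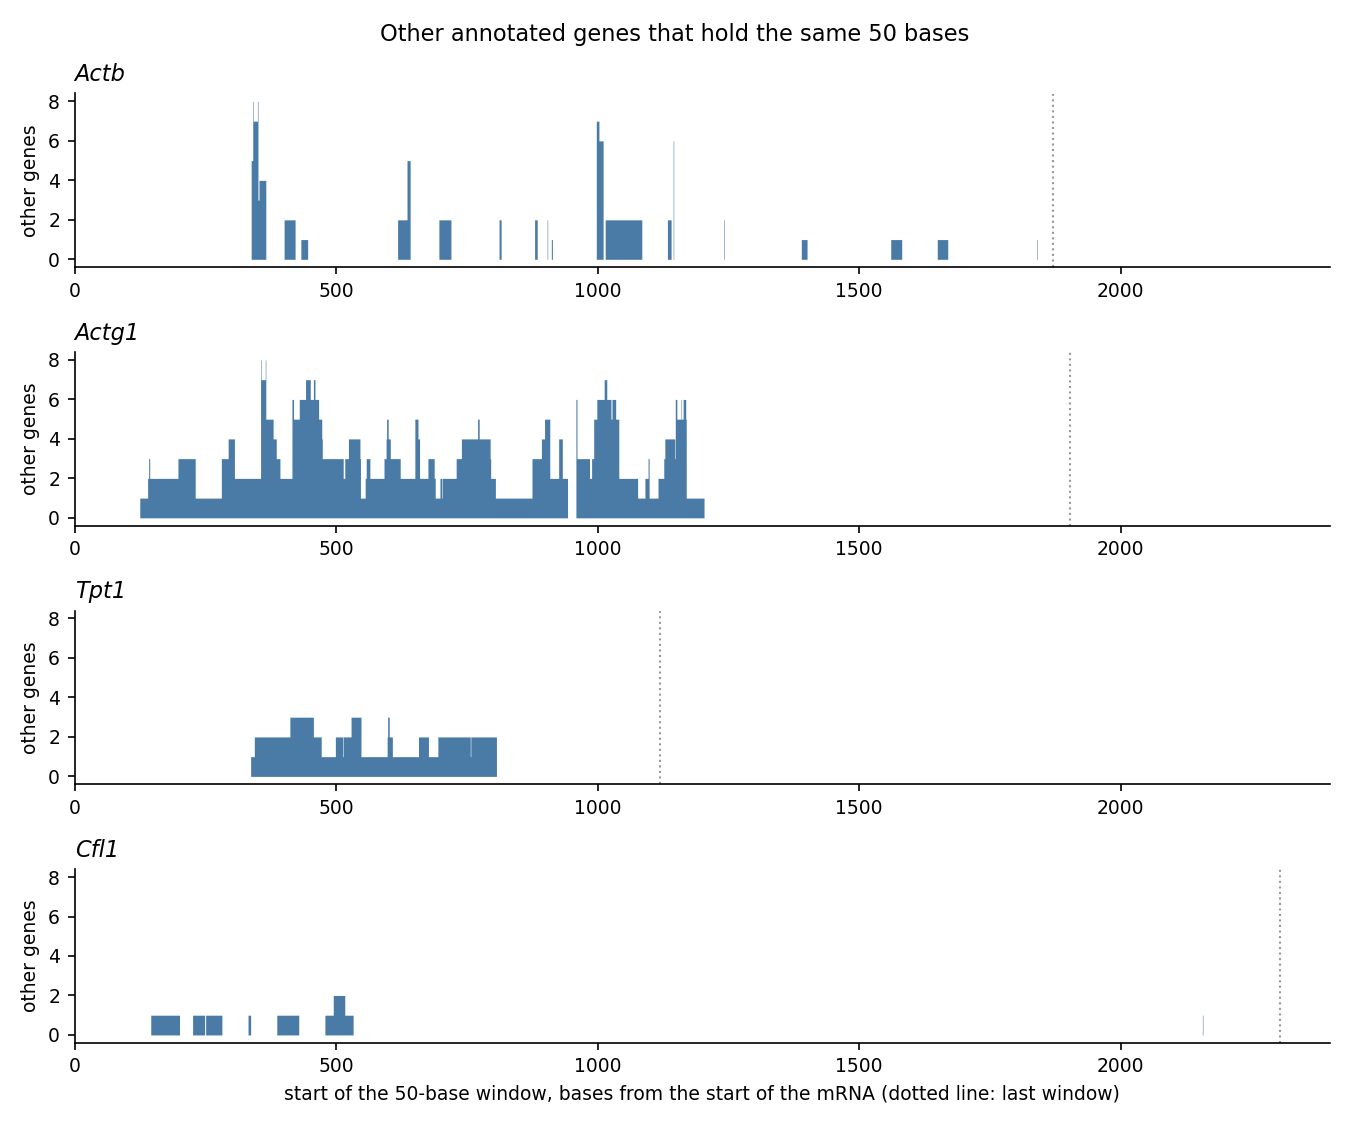
Number of other annotated genes that hold the same 50 bases, against the start of each 50-base window from the start of the main mRNA of Actb, Actg1, Tpt1 and Cfl1. Shared windows cover 55.9% of the Actg1 mRNA and 42% of the Tpt1 mRNA, and only short stretches of Actb (14.2%) and Cfl1 (9.15%).

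Reads of low mapping quality, such as those that fit several places equally well, had been discarded before counting. Actg1 had 9 to 113 counts per library, Tpt1 had 6 to 267 and Snora31 had 6 to 55, whereas Actb had 7656 to 25772. Per kilobase of annotated exon, the mean normalized count over the 17 libraries was 6407 for Actb and 10.8 for Actg1, a ratio of 593. This is a ratio of counts and no measure of the relative RNA levels, and the cause of its size was not tested. Normalized counts are counts divided by the library's size factor. Annotated exons also include sequence outside the main mRNA, which made up 26.6% of the exon bases of Actg1 and 50.9% of those of Tpt1 and was almost free of shared windows (0.821% and 0.153%). The counts of Actg1 and Tpt1 cover the part of their RNA that maps to a single place, and changes of the main mRNA and of other transcripts of these genes cannot be told apart here. Only annotated transcripts were searched, so the share of repeated windows is a lower limit.

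The libraries held 5831992 to 18735643 counts. Crebbp, the targeted gene, had 1061 to 1337 normalized counts in the 9 CBP-ifKO libraries and 1824 to 2429 in the 8 Control libraries. Esr1, an estrogen receptor gene related to the ERT2 part of creERT2, had 703 to 941 and 41.0 to 77.8. All 7 markers of hippocampal excitatory neurons were detected, with summed normalized counts of 37581 to 53706. Markers of the choroid plexus varied most, from 413 to 44025 in sum, within groups as well as between them. The Control PTZ45 libraries held 738 and 878 of these, inside the range of the other groups, and no marker of the 7 cell type lists was called between Control PTZ45 and Sal by DESeq2. Control Sal and Control PTZ0 were sequenced in lane 3, CBP-ifKO Sal and Control PTZ45 in lane 4, and CBP-ifKO PTZ0 and CBP-ifKO PTZ45 in lane 5.

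Tpt1, Actg1 and Snora31 stood higher in both Control PTZ45 libraries than in any other library, and none of them did so in CBP-ifKO PTZ45. Tpt1 had 236 and 259 normalized counts in Control PTZ45. It had 40.5, 44.3 and 53.3 in Control Sal, and 30.7, 35.1 and 37.1 in Control PTZ0. In CBP-ifKOs, Tpt1 had 37.2, 12.5 and 61.3 in Sal, 30.4, 40.1 and 36.3 in PTZ0, and 47.3, 51 and 61.3 in PTZ45. The Control PTZ45 libraries did not overlap with any other group, and the remaining libraries ranged from 12.5 to 61.3. In CBP-ifKOs, PTZ45 overlapped with Sal but lay above PTZ0, and in Controls PTZ0 lay below Sal. DESeq2 called neither of these differences from PTZ0 and Sal, at log2 fold changes of 0.57 (SE 0.31) and -0.43 (SE 0.30). How often groups of this size are apart over all genes was not counted. The log2 fold change of Tpt1 in PTZ45 over Sal was 2.42 (SE 0.23) in Controls, or 5.36-fold, against 0.43 (SE 0.38) for the CBP-ifKO mice. The CBP-ifKO value was 0.11 without CBP-ifKO Sal replicate 2 and 0.96 without CBP-ifKO Sal replicate 3, the libraries with 12.5 and 61.3.

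Actg1 had 99.9 and 79.3 normalized counts in Control PTZ45. It had 18.7, 25.9 and 17.2 in Control Sal, and 27.2, 30.5 and 11.4 in Control PTZ0. In CBP-ifKOs it had 21.1, 18.7 and 22.2 in Sal, 25.6, 14.3 and 14.2 in PTZ0, and 17.9, 23 and 21.2 in PTZ45. Only the Control PTZ45 libraries were apart, and the other 5 groups overlapped. The log2 fold change over Sal was 2.15 (SE 0.35) in Controls, against -0.02 (SE 0.44) for the CBP-ifKO mice.

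Snora31 had 42.4 and 59.8 normalized counts in Control PTZ45. It had 17.1, 16 and 19 in Control Sal, and 15.8, 10.5 and 7.62 in Control PTZ0. In CBP-ifKOs it had 12.2, 24.9 and 18.5 in Sal, 17, 19.1 and 4.73 in PTZ0, and 12.6, 18 and 13 in PTZ45. The Control PTZ45 libraries were again above all others. Raw counts ranged from 6 to 55 per library. Control PTZ0 lay below Control Sal but was not called, at a log2 fold change of -0.61 (SE 0.50, DESeq2 unadjusted p = 0.224). The log2 fold change of PTZ45 over Sal was 1.54 (SE 0.42) in Controls, against -0.28 (SE 0.52) for the CBP-ifKO mice. The 7 other Snora genes that averaged 10 or more normalized counts, a set picked with the values in view, lay between -1.12 and 0.39 on the log2 scale in the same Control comparison.

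**Figure D2:**
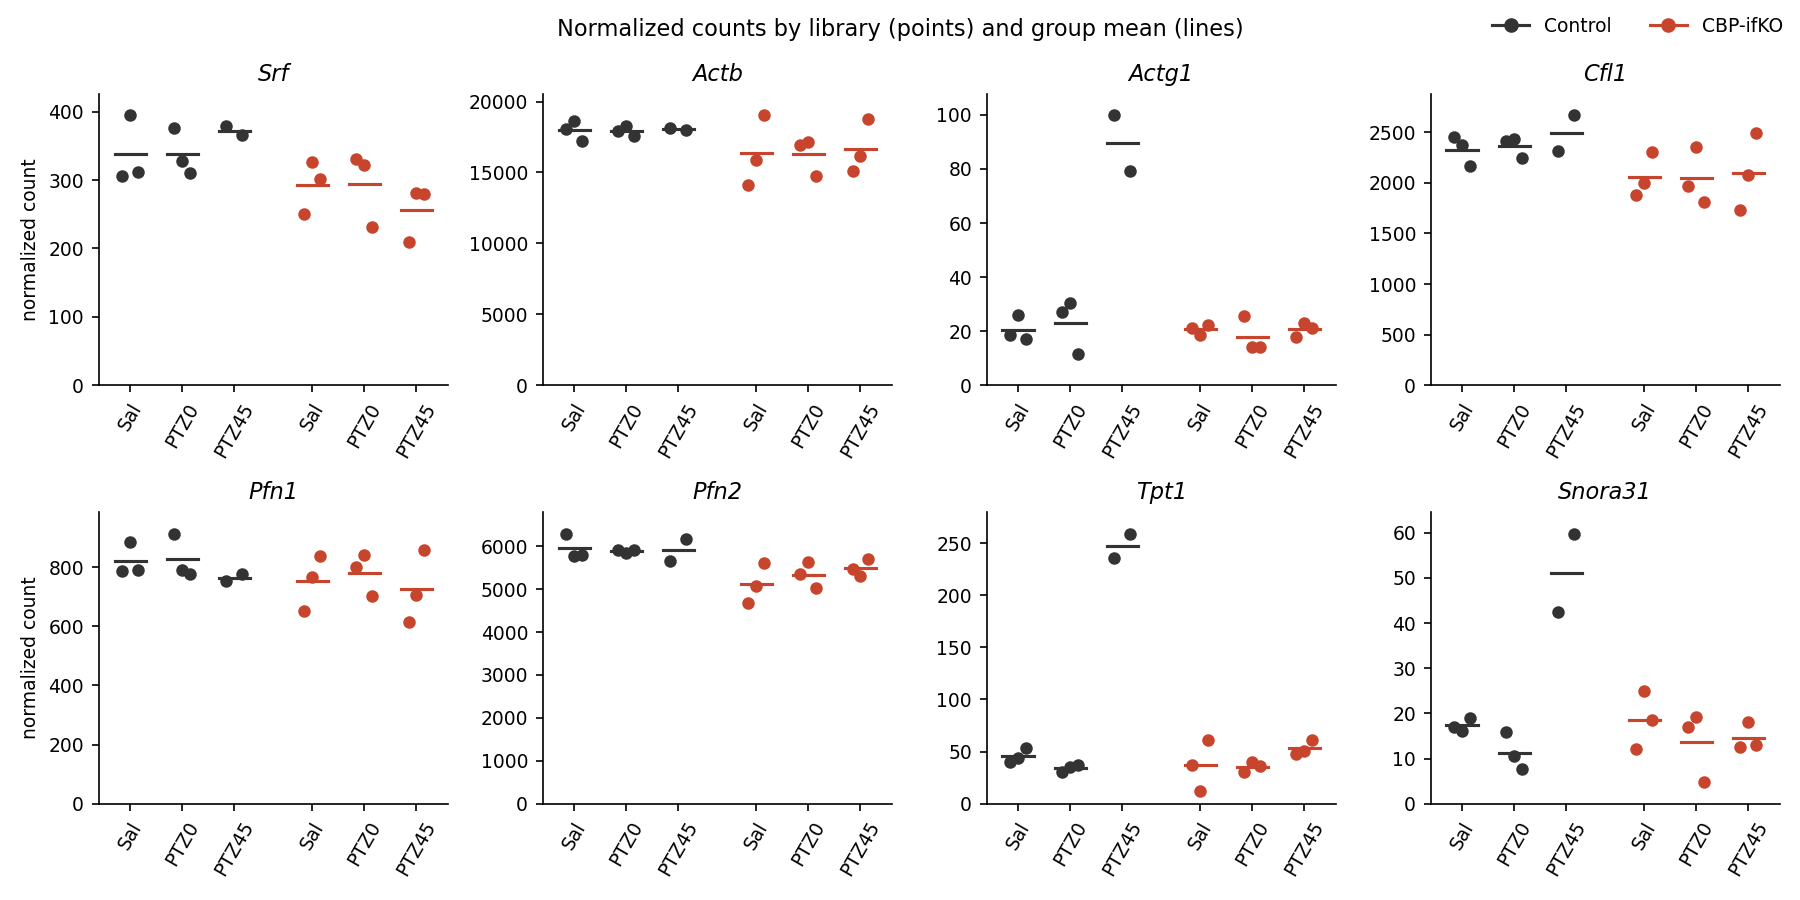
Normalized counts of the 8 genes in each of the 17 libraries (points) with the group mean (lines), for Sal, PTZ0 and PTZ45 of Control and CBP-ifKO mice, on linear axes that start at 0. Tpt1 (236 and 259), Actg1 (99.9 and 79.3) and Snora31 (42.4 and 59.8) are high only in the Control PTZ45 libraries, and in the other 5 genes the treatments of a genotype overlap, except that Pfn1 in Control PTZ45 (752 and 776) lies just below the other Control libraries.

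The counts of the annotated copies did not show the same pattern. Reads that fit a copy and its parent gene equally well were discarded from both. The counts of nearly identical copies therefore cannot show whether their RNA changed. The 5 Tpt1 pseudogenes that share windows with Tpt1 summed to 11.5 to 21.7 normalized counts in Control PTZ45 and to 16.3 to 17.9 in Control Sal. Tpt1-ps3 averaged 16.1 in Control PTZ45 and 16.7 in Control Sal. The 12 pseudogenes that share windows with Actg1 summed to 16.3 to 22.1 in Control PTZ45 and to 24.4 to 40.6 in Control Sal, and so were lower, a difference that was not tested. Control PTZ45 was sequenced in lane 4 and Control Sal and PTZ0 in lane 3, so within Controls the PTZ45 treatment and the lane cannot be told apart. CBP-ifKO PTZ45 and Sal were in different lanes as well. The other libraries of lane 4, those of CBP-ifKO Sal, which differ from Control PTZ45 in genotype and treatment, had 12.5 to 61.3 normalized counts of Tpt1.

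By the Wald test of DESeq2, the comparison of Control PTZ45 with Sal called 3 of the 8 genes, where 1.17% of all tested genes were called. Against Control PTZ0, which is likewise a comparison with the Control PTZ45 libraries, 3 were called, all higher, beside 1.25% of all genes (1.18% higher and 0.0667% lower), with log2 fold changes of 2.85 (SE 0.24) for Tpt1, 1.97 (SE 0.37) for Actg1 and 2.16 (SE 0.48) for Snora31. The interaction of genotype and PTZ45, the difference between the responses of the genotypes, called 2 beside 0.329%, and CBP-ifKO against Control in PTZ45 called 4, all lower, beside 3.07% (0.25% higher and 2.82% lower). These calls rested on 2 Control PTZ45 libraries, as the values without single libraries in the closing section show. In that last comparison the log2 fold changes were -2.22 (SE 0.23) for Tpt1, -2.11 (SE 0.37) for Actg1, -1.80 (SE 0.47) for Snora31 and -0.54 (SE 0.17) for Srf.

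The treatment comparisons that do not use the Control PTZ45 libraries called none of the 8 genes. CBP-ifKO PTZ45 against Sal gave an adjusted p of 1 for every one of them (DESeq2, 8 tested), with 0 at an unadjusted p under 0.05 and 0 called by edgeR, where 0.294% of all genes were called. CBP-ifKO PTZ45 against PTZ0, which was made within lane 5, gave the same counts of 0 beside 0.0872% of all genes. Its largest value was that of Tpt1, 0.57 on the log2 scale (SE 0.31, DESeq2 unadjusted p = 0.0639, adjusted p = 1). Control PTZ0 against Sal, made within lane 3, and CBP-ifKO PTZ0 against Sal also called 0, with 0 at an unadjusted p under 0.05 and 0 by edgeR, beside 0.00843% and 0.0112% of all genes. For repeated injections without a last PTZ dose no difference in these genes was detectable at this depth, with SEs of 0.05 to 0.13 on the log2 scale for Srf, Actb, Cfl1, Pfn1 and Pfn2 in Controls and of 0.30 to 0.50 for the 3 genes of low count.

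**Figure D3:**
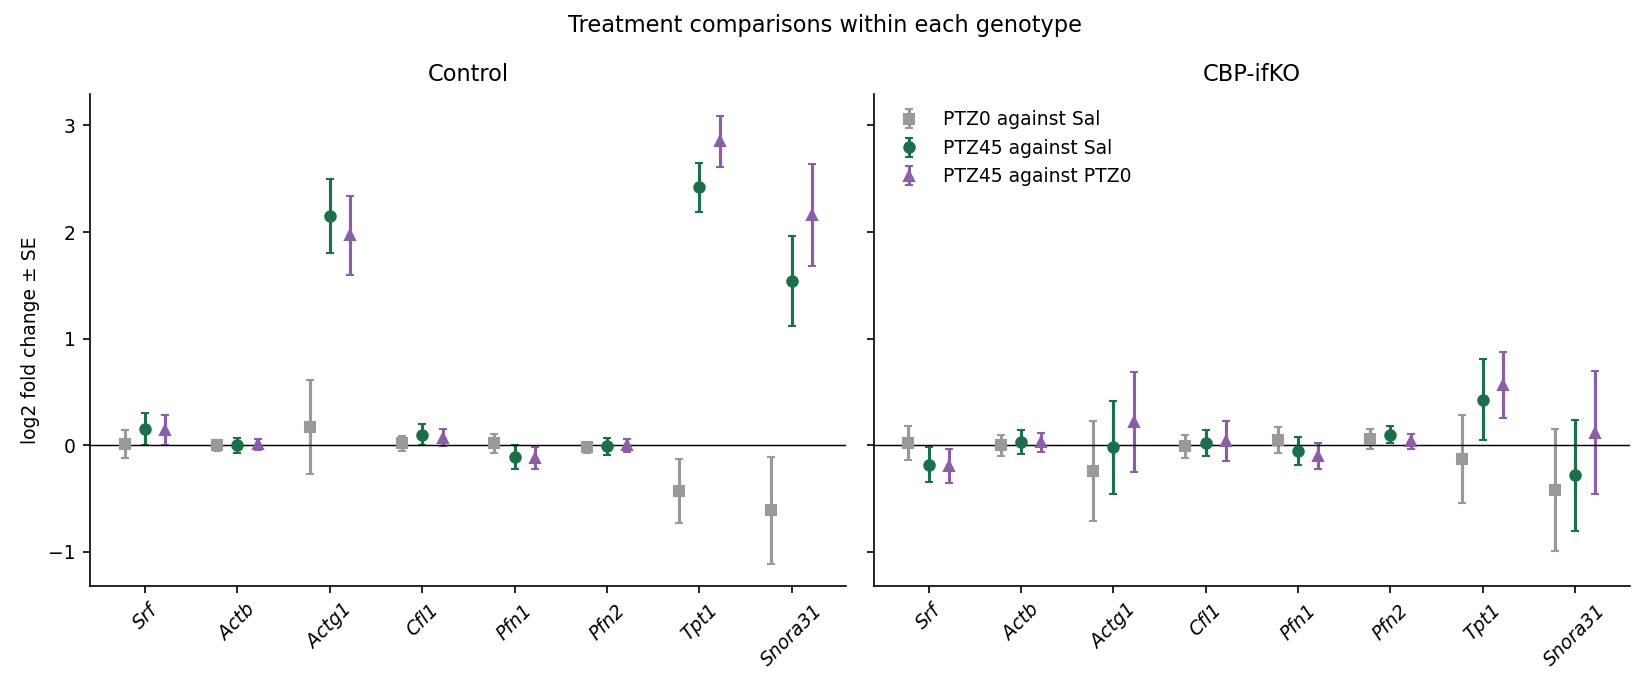
Log2 fold change with its SE for the 8 genes in 3 treatment comparisons, in Control (left) and CBP-ifKO mice (right). Tpt1, Actg1 and Snora31 lie between 1.54 and 2.85 in both Control comparisons of PTZ45, and in CBP-ifKOs the values of the 8 genes lie between -0.42 and 0.57.

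Srf had 379 and 366 normalized counts in Control PTZ45, between the values of 306, 395 and 312 in Control Sal, and 209, 281 and 279 in CBP-ifKO PTZ45 against 250, 326 and 302 in CBP-ifKO Sal. All groups of one genotype overlapped. The log2 fold change of PTZ45 over Sal was 0.15 (SE 0.15) in Controls, against -0.18 (SE 0.16) for the CBP-ifKO mice. Srf has the highest exonic GC content of the 8 genes, 64.4%, and with GC correction the values were 0.44 and 0.15, so that the CBP-ifKO direction turned. When single libraries were left out, the Control value lay between 0.08 (without Control Sal replicate 1) and 0.27 (without Control Sal replicate 2), and the CBP-ifKO value between -0.28 (without CBP-ifKO Sal replicate 1) and -0.05 (without CBP-ifKO PTZ45 replicate 1).

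Actb, at 14117 to 19045 normalized counts, had the highest count of these genes per kilobase. Its log2 fold change of PTZ45 over Sal was 0.00 (SE 0.07) in Controls, against 0.03 (SE 0.11) for the CBP-ifKO mice. Its group means were 17972 ± 725 (SD, n = 3) in Control Sal, 18059 ± 105 (SD, n = 2) in Control PTZ45 and 16681 ± 1898 (SD, n = 3) in CBP-ifKO PTZ45. The 3 genes of actin-binding proteins had log2 fold changes in Controls of 0.10 (SE 0.10) for Cfl1, -0.11 (SE 0.11) for Pfn1 and -0.01 (SE 0.08) for Pfn2. With GC correction Pfn1 turned to 0.09, and Cfl1 was at 0.20 without Control PTZ45 replicate 1 and at -0.01 without Control PTZ45 replicate 2. Cfl1 shares 468 exon bases with Snx32 on the opposite strand, and since the strand setting of the counting was not stated, reads of the pair cannot be told apart.

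The genotypes were then compared without PTZ45, so that the Control PTZ45 libraries did not enter, although the Control Sal libraries, the other side of the comparison behind the choice of genes, did. In 1 fit of the Sal and PTZ0 libraries, added after the data had been seen, Pfn2 and Cfl1 were lower in CBP-ifKOs, 2 of 8 genes where 14.6% of all genes were called. All Control libraries of this fit were in lane 3 and all CBP-ifKO libraries in lanes 4 and 5. Genotype and lane therefore cannot be told apart in it. Pfn2 had 5783 to 6293 normalized counts in the 6 Control libraries and 4678 to 5640 in the 6 CBP-ifKO libraries, without overlap, and differed by -0.18 on the log2 scale (SE 0.05, DESeq2 adjusted p = 0.00391). Cfl1 had 2163 to 2447 in the Control libraries and 1813 to 2349 in CBP-ifKOs, which overlapped, and differed by -0.19 (SE 0.07, DESeq2 adjusted p = 0.0317). Both differences were small, a level of 0.883 and 0.875 of that in Controls. With GC correction Cfl1 kept nearly the same difference, -0.18, but its call was lost (adjusted p = 0.0587 by DESeq2) and that of Pfn2 was kept (adjusted p = 0.0183 by DESeq2). In bulk tissue, fewer cells of a type and less RNA per cell cannot be told apart.

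The other abundant genes were also below Controls in the same fit but did not pass, at log2 fold changes of -0.21 (SE 0.10) for Srf, -0.14 (SE 0.06) for Actb and -0.11 (SE 0.07) for Pfn1, with adjusted p of 0.162, 0.129 and 0.369 by DESeq2. With GC correction the values were -0.10 for Srf, -0.12 for Actb and -0.04 for Pfn1. Without that correction, Tpt1, Actg1 and Snora31 had -0.08 (SE 0.23), -0.16 (SE 0.28) and 0.11 (SE 0.33). Without the PTZ45 dose, the levels of these 3 genes in the genotypes did not differ beyond their error.

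Within single treatments, DESeq2 called 0 genes in Sal (6 tested, 1 at an unadjusted p under 0.05, 0 by edgeR) beside 2.04% of all genes, and 0 in PTZ0 (5 tested, 3 at an unadjusted p under 0.05, 0 by edgeR) beside 6.68%. Pfn2 had a log2 fold change of -0.22 (SE 0.08) in Sal and -0.14 (SE 0.06) in PTZ0, and Cfl1 had -0.18 (SE 0.09) and -0.21 (SE 0.08). Single libraries decided these calls. Without CBP-ifKO Sal replicate 3, Actb, Cfl1 and Pfn2 were called in Sal (log2 fold changes of -0.27, -0.27 and -0.30), and without CBP-ifKO PTZ0 replicate 2 the same 3 genes were called in PTZ0 (-0.18, -0.33 and -0.19).

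Over all treatments, in the fit of 17 libraries that includes Control PTZ45, 4 of the 8 genes were called lower in CBP-ifKOs, where 11.5% of all genes were called lower, 7.76% higher and 19.3% in either direction. They were Pfn2 at -0.16 (SE 0.04), Cfl1 at -0.21 (SE 0.07), Srf at -0.31 (SE 0.09) and Actg1 at -0.80 (SE 0.28). Actg1 and Srf were not called without the PTZ45 libraries, as given above. With GC correction Srf was at -0.19 and was not called. With the replicate number as a block Actg1 was at -0.71 and was not called (adjusted p = 0.0536 by DESeq2). Leaving out Control PTZ45 replicate 1 or CBP-ifKO PTZ45 replicate 1, 2 or 3 also ended the call of Actg1, and without Control PTZ45 replicate 2 those of Actg1 and Cfl1 were lost. Genotype comparisons of the same treatment cross lanes, so genotype and lane cannot be told apart in them. A fit with lane as a term, which assumes that effects of genotype and treatment add up, called none of these 4 genes. It gave -0.18 for Pfn2 and -0.21 for Cfl1, against -0.55 for Srf and -1.69 for Actg1, and called Tpt1 at -2.47. In that fit the genotypes are compared through the Control PTZ45 libraries, the only Control libraries that share a lane with CBP-ifKO libraries. Without the lane term Tpt1 was at -0.76 and not called by DESeq2 (adjusted p = 0.0995). It was called by edgeR, at -0.86 (adjusted p = 0.0317), and by DESeq2 without CBP-ifKO Sal replicate 3, at -0.97 (adjusted p = 0.0162).

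**Figure D4:**
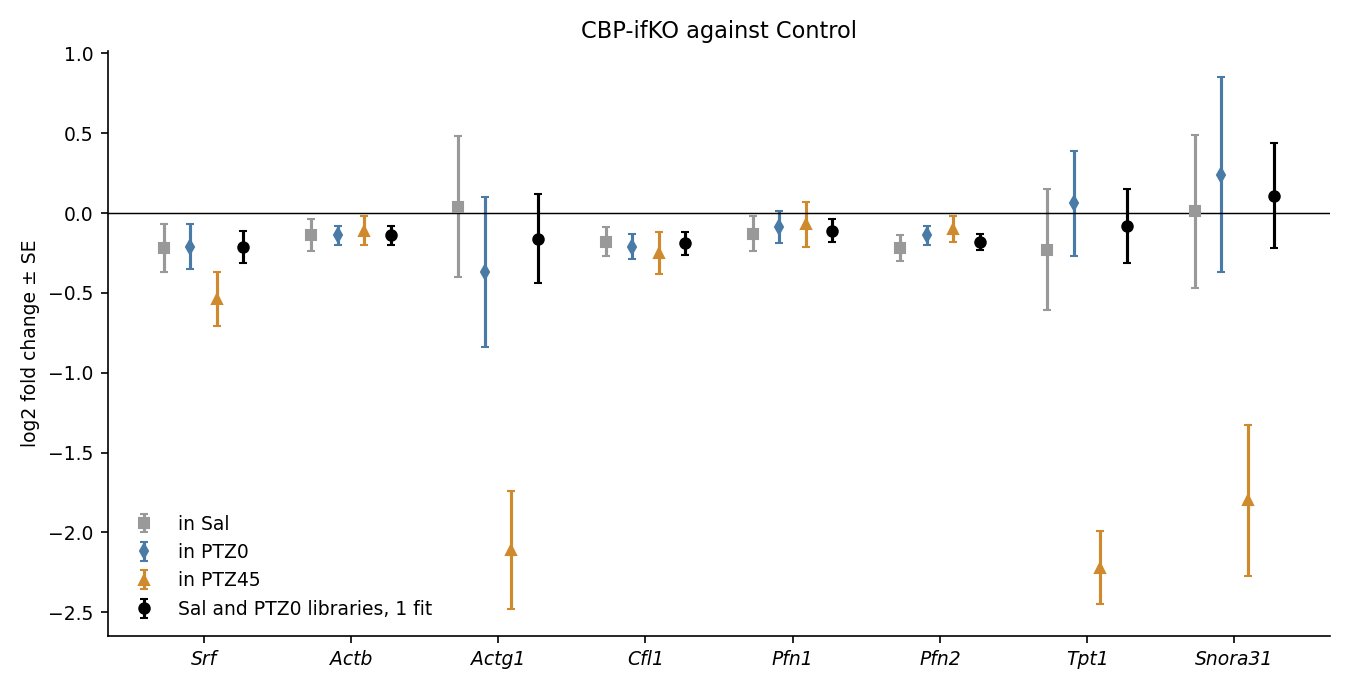
Log2 fold change with its SE of CBP-ifKO against Control for the 8 genes within Sal, within PTZ0, within PTZ45 and in 1 fit of the Sal and PTZ0 libraries. Srf, Actb, Cfl1, Pfn1 and Pfn2 lie below 0 in each, down to -0.54 for Srf in PTZ45, and Actg1, Tpt1 and Snora31 lie near -2 in PTZ45 (-2.11, -2.22 and -1.80).

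Genes of the same pathways were described from 7 lists, with the count that passed beside the background. The lists were chosen with earlier results of these data known, so the counts are a description and no test of the pathways. For PTZ45 against Sal, 0.939% of all genes were called higher and 0.236% lower in Controls, and 0.086% and 0.208% in CBP-ifKOs. Targets of SRF among immediate early genes moved most. In Controls 11 of 11 rose, with a median log2 fold change of 2.52 beside 0.01 over all tested genes. In CBP-ifKOs 6 of 11 rose by DESeq2, 1 by edgeR, with a median of 0.71 beside 0.00. Fos, a subunit of the AP-1 transcription factor, averaged 39.6 normalized counts in Control Sal, 2699 in Control PTZ45 and 234 in CBP-ifKO PTZ45. Egr2, a zinc finger transcription factor, averaged 11.3, 380 and 36.5 in the same groups.

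Of the 20 cytoskeletal targets of SRF, 18 were tested in Controls and 1 rose, with 3 at an unadjusted p under 0.05 and a median log2 fold change of -0.01. That gene was Ccn1, a secreted matrix-associated protein, which averaged 26.3 normalized counts in Control Sal and 224 in Control PTZ45. It also rose in CBP-ifKOs by DESeq2 (1 of 20 tested) but not by edgeR, from 18.7 to 73.1 (log2 fold change 2.03, SE 0.44, adjusted p = 0.00354). The cofactors of SRF had 0 called of 5 tested in either genotype (DESeq2 and edgeR). At an unadjusted p under 0.05 there were 0 in Controls and 1 in the CBP-ifKO mice. Mrtfb, the most abundant of them, averaged 3445 in Control Sal and 3516 in Control PTZ45.

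Actin isoforms of muscle, and the genes that turn over, nucleate or cap filaments, had no call for PTZ45 against Sal in either genotype by DESeq2 or edgeR. At an unadjusted p under 0.05 there were 0 and 0 isoforms of 2 tested, 1 and 1 turnover genes of 19, and 2 of 19 and 0 of 20 nucleation and capping genes, with Controls first. Tmsb4x, which sequesters actin monomers, averaged 8309 in Control Sal and 7862 in Control PTZ45. Among the 5′ TOP messages, the class of Tpt1, 1 of 18 tested genes rose in Controls. It was Pabpc1, the cytoplasmic poly(A)-binding protein, which averaged 634 and 890 normalized counts (log2 fold change 0.49, SE 0.12). In CBP-ifKOs 0 of 20 were called by DESeq2, 0 by edgeR and 0 at an unadjusted p under 0.05.

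Between the genotypes, in the fit of the Sal and PTZ0 libraries, 5.53% of all genes were called higher in CBP-ifKOs and 9.04% lower. Genotype and lane cannot be told apart in this fit. Of the genes that nucleate or cap filaments, 5 of 19 tested were lower and 0 higher, with a median log2 fold change of -0.11 beside 0.01. They included Arpc1a, a subunit of the Arp2/3 complex, at -0.31 (SE 0.06, adjusted p = 4.58e-06 by DESeq2), and Capzb, a capping protein subunit, at -0.26 (SE 0.05, adjusted p = 4.43e-06 by DESeq2). Of the cytoskeletal targets of SRF, 5 of 18 tested were lower and 0 higher, with a median of -0.19. Tpm1, a tropomyosin that coats filaments, was at -0.30 (SE 0.04, adjusted p = 1.75e-10 by DESeq2), and the LIM-domain gene Fhl2 was at -0.41 (SE 0.10). Genes of monomer binding and filament turnover went both ways, with 2 higher and 5 lower of 19. Coro1a, an actin-binding coronin, was at -0.37 (SE 0.09), and the cofilin phosphatase gene Ssh3 was at 0.32 (SE 0.06). Of the 5 SRF cofactors tested, 1 was higher, the ternary complex factor Elk3 at 0.32 (SE 0.11). Of the immediate early genes 3 of 10 were lower, of the 5′ TOP messages 3 of 19, and of the muscle actin isoforms 0 of 2 were called by DESeq2, with 0 at an unadjusted p under 0.05. The smooth muscle and pericyte markers, which share Acta2, Tagln and Cnn1 with these lists or with actin isoforms, summed to 2217 to 2390 in the Control Sal and PTZ0 libraries and to 1600 to 2368 in those of CBP-ifKOs, with 1 of 5 tested lower. Astrocyte markers summed to 14656 to 15471 and 12652 to 14514, with 1 of 5 lower, and oligodendrocyte markers, with 3 of 5 lower, summed to 34064 to 36492 and 27264 to 37767. Microglia markers, with 0 of 6 called higher and 0 lower by DESeq2, summed to 2340 to 2542 and 1895 to 2606, with a median log2 fold change of -0.18. Coro1a is known to be expressed in these cells. Of the 7 excitatory neuron markers 1 was higher and 2 were lower. Their part in the lower levels was not tested.

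The genes whose pattern over the 17 libraries was most like that of each member were sought in the 13035 genes that averaged 50 or more normalized counts, by Pearson's r of log2 normalized counts. These are descriptions, since the libraries share groups, lanes and depth. For Tpt1 they were the snoRNA host Snhg1 (r = 0.94), the translation initiation helicase Eif4a1 (0.93) and the F-box gene Fbxo33 (0.93). After removal of the group means the values were 0.84, 0.69 and 0.50. For Actg1 they were Gadd45g (0.91), Gm45902 (0.90) and Egr3 (0.89), which fell to 0.37, 0.32 and 0.21 within groups. Actb was closest to Idh3g (0.94), Fndc4 (0.92) and Wdr1 (0.92), the last a cofactor of cofilin in filament disassembly, and these kept 0.96, 0.92 and 0.93 within groups. Srf was closest to Kctd1 (0.89), Slc43a2 (0.87) and Cplx2 (0.86), Cfl1 to Rpl4 (0.92), Ywhah (0.90) and Cox6b1 (0.90), Pfn1 to Rab3a (0.91), Mlf2 (0.90) and Otub1 (0.90), and Pfn2 to Fam131b (0.95), Stk25 (0.94) and Gabarapl1 (0.94).

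The members also varied together to different degrees. Over the 17 libraries, Actb had r = 0.87 with Cfl1, 0.82 with Pfn1 and 0.81 with Pfn2, and 0.83, 0.87 and 0.76 within groups. Tpt1 had r = 0.77 with Actg1 and 0.60 with Snora31, and -0.03 and -0.25 within groups, where only the spread between replicates is left.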

How the data were processed

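Raw counts per gene were used, which the authors deposited as whole numbers without normalization. The authors checked reads with FastQC 0.11.8, trimmed them with Trim Galore 0.6.4, aligned them with STAR 2.6.1 to GRCm38, kept reads above a mapping quality threshold and counted them on Ensembl exons with Rsubread. Of the columns of counts, 1 matched no sample and was used in no step. Symbols, positions and transcripts came from GENCODE M21, which held 99.6% of the identifiers. Pairs of libraries of a group differed by more than counting noise (chi-square per degree of freedom of 2.16 to 16.04).

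The members and lists were chosen with earlier results of these data known. The main test was the two-sided Wald test of DESeq2 1.42.0 in R 4.3.3, with the groups compared fitted alone and p-values adjusted by Benjamini-Hochberg over all genes with independent filtering. A gene was called at an adjusted p under 0.05, and an adjusted p left empty was not counted. Other settings tried were edgeR 4.0.16 (quasi-likelihood test), TMM size factors, keeping genes that reach 10 counts in 2 or more libraries, 1 fit of all 17 libraries, the replicate number as a block, correction of each library's trend over GC content (loess span 0.5, genes with a mean of at least 20), and leaving out each library. Fits with lane as a term and of the Sal and PTZ0 libraries only were added after the data had been seen. The fits were tested on simulated counts. Labels name no separate cultures or litters, so p-values measure the spread between these mice. The text names the 8 members, their annotated copies, at most 4 genes of a list (the largest called changes, or else the most abundant), and 3 genes most like each member with a mean of at least 20.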

Additional observations from a re-analysis of the deposited data

Results flagged for a closer look

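The responses of 2 genes to PTZ45 over Sal differed between the genotypes by the interaction term of DESeq2. The term was -2.03 on the log2 scale for Tpt1 and -2.17 for Actg1, which means a smaller response in CBP-ifKOs. Both genes were chosen on their level in the Control PTZ45 libraries, so the term describes them and is no independent test.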

How the results depend on the processing

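Under the alternatives, 1192 of 1272 values of single genes kept their call or lack of one, 67 lost a call, 13 gained one and 0 called values changed direction, while 103 values that were called in neither fit had another sign. For Control PTZ45 against Sal, 3 genes were called, 1 (Tpt1) with the replicate block, with or without GC correction, where Actg1 and Snora31 lost the call at nearly the same log2 fold changes (2.02 and 1.59 with the block alone, 2.15 and 1.54 without it), and 1 to 2 when 1 library was left out, with 1 without Control PTZ45 replicate 1. For the interaction, 2 were called, 1 by edgeR, 1 with the replicate block, with or without GC correction, and 0 to 2 when 1 library was left out, with 0 without Control PTZ45 replicate 2 and 1 without Control PTZ45 replicate 1, Control Sal replicate 3 or CBP-ifKO Sal replicate 1 or 3. For Control PTZ45 against PTZ0, 3 were called, 1 with the replicate block, with or without GC correction, and 0 to 3 when 1 library was left out, with 0 without Control PTZ45 replicate 1. For CBP-ifKO against Control in PTZ45, 4 were called, 1 with the replicate block, with or without GC correction, and 1 to 3 when 1 library was left out, with 1 without Control PTZ45 replicate 1 and 2 without Control PTZ45 replicate 2 or CBP-ifKO PTZ45 replicate 1. In Sal, 0 were called, 1 (Pfn2) in 1 fit of all 17 libraries and 0 to 3 when 1 library was left out, and in PTZ0 0 were called and 0 to 3 when 1 library was left out. Over all treatments 4 were called, 2 with GC correction and the replicate block, 1 (Tpt1) with lane as a term, 2 in the Sal and PTZ0 libraries only, 1 there with GC correction, 2 there with the replicate block, and 2 to 6 when 1 library was left out, with 2 without Control PTZ45 replicate 2 and 6 without CBP-ifKO Sal replicate 3. The cause of these changes was not tested. Libraries with the same number did not deviate together (correlations of -0.52 to 0.53 over 40 pairs, 15 of them over 0.1), so they share only a number, and the block changed no count of calls in the other comparisons by over 1.5 times. Where a group was left with 1 library, that library was assumed to vary like the others. The low counts of Actg1, Tpt1 and Snora31 limit what can be seen of them.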
